A study of Mus musculus with 12 samples.

Results

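The lipid metabolism genes described here are the rows of the hippocampus and cortex gene tables whose Gene Ontology (GO) annotation holds the term lipid metabolic process. Rows that also carry ion transport or multicellular organism development were left out, as were 8 genes by name (Pltp, Ugt8a, Plce1, Etnppl, Alpl, Aspa, S1pr1 and Akt2). This gave 25 genes of the 1017 listed in either tissue, 12 of 652 in hippocampus and 14 of 561 in cortex. Only Echdc2 was listed in both. The RNA came from hippocampus and cortex of BK KO mice (kcnma1-/-, strain C57BL/6), which lack the pore-forming subunit of the large-conductance calcium-activated potassium channel in every cell, and of wild type (WT) C57BL/6 mice. The knockout carries a frameshift deletion in Kcnma1 and was bred from heterozygous pairs. Each tissue had 3 libraries of each genotype, from different adult mice, 12 libraries in all. The study describes both tissues as taken from these mice, and the labels do not tie libraries of the tissues to one mouse. The comparison asks which transcripts differ when the channel is missing.

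Brain lipids are made largely inside the brain, since lipoproteins cross the blood-brain barrier poorly. Cells take up or build fatty acids, store them as triglyceride in lipid droplets, burn them in mitochondria, and turn them into the phospholipids, sphingolipids and cholesterol of membranes and myelin. Phospholipases cut membrane lipids into second messengers, and eicosanoids and oxysterols carry signals between cells.

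Levels are given as FPKM, fragments per kilobase of transcript, scaled to the fragments of each library. The sources do not name this unit. It was taken from how the values fall with transcript length, which cannot tell FPKM from another length-scaled unit. The tables list only genes that the authors called different between genotypes in these same libraries, so every comparison of BK KO with WT mice describes genes already chosen for that contrast and is no independent test of them. A gene is said to have risen or fallen when limma on log2(FPKM + 1) gave a log2 fold change beyond 0.58 in either direction with p under 0.05, unadjusted. Adjusted p-values are Benjamini-Hochberg values from limma over all listed genes of the tissue. This scale shrinks the fold changes of genes with low FPKM. In these tissue samples, fewer cells of a type and less RNA per cell cannot be told apart. The targeted gene, Kcnma1, averaged 10.5 ± 0.822 FPKM (SD, n = 3) in WT and 2.73 ± 0.156 (SD, n = 3) in BK KO hippocampus. In cortex it averaged 11.2 ± 1.21 FPKM (SD, n = 3) and 2.94 ± 0.168 (SD, n = 3).

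The stretches upstream of the annotated start sites of 5 members, chosen after their values were seen, are shown first. Echdc2 is the gene listed in both tissues, and Plcxd3 and Pnpla3 are a rise and a fall of hippocampus. Plch2 is a fall of cortex with little spread between libraries. Ch25h, which neither rose nor fell by this criterion, makes an oxysterol. Plch2 has 2 annotated start sites, and only the first is shown. The other has matches to the CCAAT and GC boxes and none to the AP-1 site. Each run is the 250 bases before the start, 5′ to 3′, from RefSeq on build GRCm38.p6. Capitals mark matches, on either strand, to the CCAAT box, the GC box (letters GGGCGG), the TATA box (letters TATAAA), the E-box (letters CACGTG), the core of the cyclic AMP response element (letters TGACGT) or the AP-1 site (letters TGANTCA).
Echdc2 (chr4:108165187-108165436, plus strand): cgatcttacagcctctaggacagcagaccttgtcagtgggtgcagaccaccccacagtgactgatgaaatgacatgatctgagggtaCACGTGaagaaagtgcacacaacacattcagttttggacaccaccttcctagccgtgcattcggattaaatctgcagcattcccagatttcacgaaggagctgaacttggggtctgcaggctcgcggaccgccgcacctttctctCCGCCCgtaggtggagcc
Plcxd3 (chr15:4375241-4375490, plus strand): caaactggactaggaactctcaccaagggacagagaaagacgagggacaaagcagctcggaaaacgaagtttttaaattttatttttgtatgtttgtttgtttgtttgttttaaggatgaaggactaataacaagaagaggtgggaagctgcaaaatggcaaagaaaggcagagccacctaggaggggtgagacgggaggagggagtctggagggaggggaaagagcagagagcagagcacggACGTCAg
Pnpla3 (chr15:84167566-84167815, plus strand): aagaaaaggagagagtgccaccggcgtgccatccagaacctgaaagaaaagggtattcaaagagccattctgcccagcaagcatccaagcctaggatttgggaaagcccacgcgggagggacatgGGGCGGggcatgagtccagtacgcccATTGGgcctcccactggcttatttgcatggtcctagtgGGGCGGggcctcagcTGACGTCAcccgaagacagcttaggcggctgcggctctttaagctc
Ch25h (chr19:34475149-34475398, minus strand): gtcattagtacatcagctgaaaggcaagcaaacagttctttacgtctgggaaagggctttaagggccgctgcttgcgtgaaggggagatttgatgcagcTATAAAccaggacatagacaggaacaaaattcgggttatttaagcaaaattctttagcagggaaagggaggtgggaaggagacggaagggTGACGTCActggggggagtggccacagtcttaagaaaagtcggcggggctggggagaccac
Plch2 (chr4:155019429-155019678, minus strand): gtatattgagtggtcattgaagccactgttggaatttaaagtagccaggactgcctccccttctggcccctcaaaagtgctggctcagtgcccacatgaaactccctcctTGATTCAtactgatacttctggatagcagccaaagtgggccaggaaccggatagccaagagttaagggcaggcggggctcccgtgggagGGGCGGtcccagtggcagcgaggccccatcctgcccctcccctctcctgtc

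A promoter was found for 19 of the 25 members, 21 start sites in all. Cidea, Dgat2, Gdpd5 and Lpl were among those with no entry. The TGACGT core was present for 6 members (Aasdh, Brca1, Ch25h, Plcxd3, Pnpla3 and Serac1), in 28.6% of member promoters and in 6.47% of all 32851 RefSeq promoters of the same length. The full palindrome TGACGTCA, which contains the core on both strands, was found for Aasdh, Ch25h and Pnpla3, and in 1.55% of all promoters. Of these 6 genes, Brca1 and Plcxd3 were higher and Pnpla3 lower in BK KO hippocampus, while in cortex Ch25h was higher and Aasdh and Serac1 lower. Genes with the core were therefore found in both directions. The GC box was present in 47.6% of member promoters and in 32.7% of all, and CCAAT in 42.9% and 33.8%. TATAAA was present in 9.52% and 12.4%, CACGTG in 9.52% and 6.02%, and TGANTCA in 14.3% and 6.75%. Also searched were the consensus response elements of PPAR, of LXR and of the glucocorticoid receptor, and TCACNCCAC, a core of the sterol regulatory element. Such matches were in 0 member promoters and in 0.0335%, 0.0152%, 0.00913% and 1.05% of all promoters. Member promoters had a median GC content of 57.6%, against 52.4% over all promoters. A match is a run of letters and no evidence of binding.

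In hippocampus, 6 of the 12 members passed the threshold, against 42.6% of all 652 listed genes. Of these, 4 rose, among them Plcxd3, Smpdl3b and Dgat2, and Echdc2 and Pnpla3 fell. Of all listed hippocampus genes, 20.7% passed upward and 21.9% downward. The adjusted p was under 0.05 for 11 members and for 71.6% of listed genes. The BK KO and WT values did not overlap in 11 of the 12 members, and in 79.9% of all listed genes. Of these members 5 were higher and 6 lower in BK KO mice, against 32.8% and 47.1% of listed genes. In cortex, 6 of the 14 members passed, against 30.8% of all 561 listed genes. Cidea and Gdpd5 rose and Echdc2, Lpl, Plch2 and Gdpd2 fell, where all listed cortex genes passed upward in 10.9% and downward in 20%. The groups did not overlap in 10 of the 14 members, and in 80.6% of all listed cortex genes. Of these members 3 were higher and 7 lower, against 24.2% and 56.3% of listed genes. The adjusted p was under 0.05 for 8 cortex members and for 61.3% of listed genes. Without regard to the threshold, 6 members were higher and 6 lower in BK KO hippocampus, and 4 were higher and 10 lower in BK KO cortex. Of all listed genes, 41.7% were higher and 58.3% lower in hippocampus, and 29.2% were higher and 70.4% lower in cortex. The median log2 fold change was -0.07 for the members and -0.27 for all listed genes of hippocampus, and -0.34 and -0.33 in cortex. Each library was also centred on the median of the listed genes that had not passed the threshold. Most of these genes are lower in BK KO mice. With this centring the members' calls were 5 higher and 1 lower in hippocampus, and 4 higher and 0 lower in cortex. Over all listed genes the calls were then 183 higher and 69 lower in hippocampus, and 122 and 37 in cortex, in place of 135 and 143, and 61 and 112. Pnpla3 in hippocampus, and Echdc2, Lpl, Plch2 and Gdpd2 in cortex, no longer passed. Hpgd in hippocampus and Ch25h and Pnpla7 in cortex now did, and no member changed direction. The centring raised every log2 fold change by 0.13 in hippocampus and 0.21 in cortex, so these calls cannot decide whether libraries differ in scale. By the authors' base means (counts over size factors, WT then BK KO), Pnpla3 stood at 352 and 171. In cortex, Echdc2 stood at 251 and 140, Lpl at 507 and 251, Plch2 at 2391 and 1555, and Gdpd2 at 138 and 64.5. Hpgd stood at 99.8 and 156, Ch25h at 20.4 and 42.4, and Pnpla7 at 316 and 535.

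**Figure D1:**
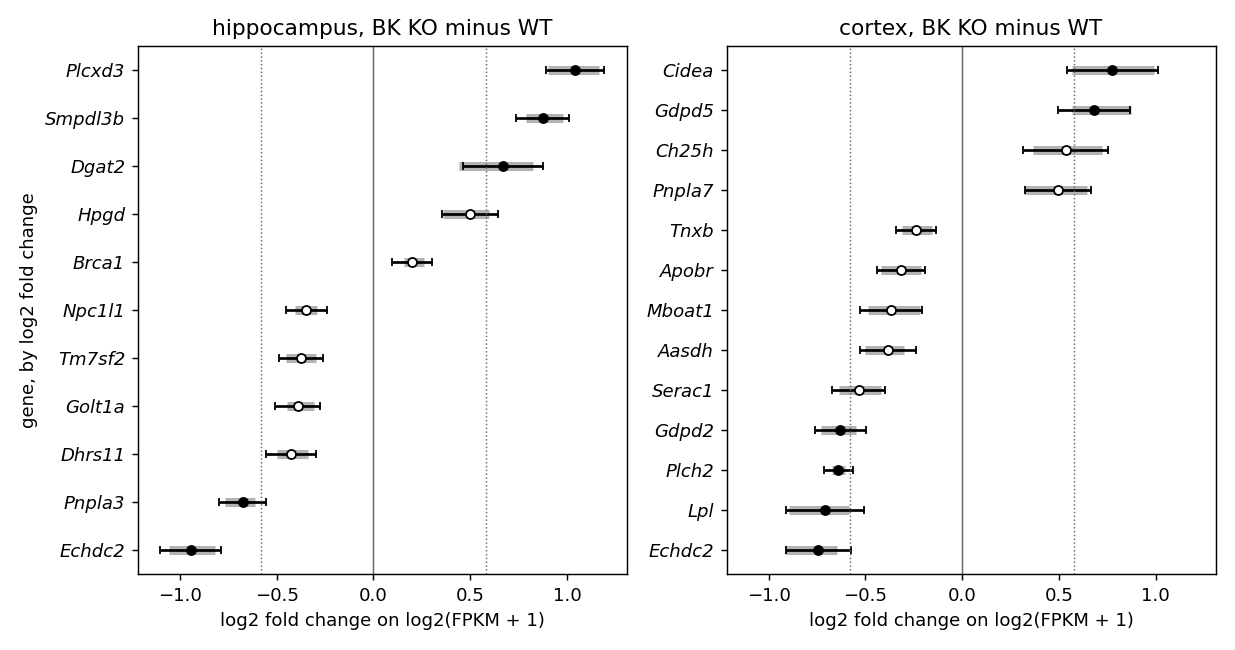
Log2 fold change (BK KO minus WT, on log2(FPKM + 1)) of 11 members in hippocampus and 13 in cortex, with hippocampus on the left and cortex on the right. Points are the limma estimates with their standard errors, filled points passed the threshold, grey bars span the fits that each left out 1 library, and dotted lines mark 0.58 in either direction. Plcxd3 at 1.04 and Echdc2 at -0.94 are the ends of the hippocampus panel.

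Only 1 gene was shared between the tissues, 8.33% of the hippocampus members and 7.14% of the cortex members. Over all listed genes the shared part was 30.1% of the hippocampus table and 34.9% of the cortex table. This share depends on the rule, because before any gene was left out 4 of the 18 genes with the term in each table were shared (Echdc2, Hacd1, Pltp and Ugt8a).

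Among the genes of fatty acid breakdown, Echdc2 encodes a mitochondrial protein of the enoyl-CoA hydratase family, relatives of which carry out a step of β-oxidation. Echdc2 measured 5.07, 6.39 and 4.31 FPKM in individual WT hippocampus libraries (library 1, 2 and 3, the order used throughout) and 2.63, 2.20 and 1.87 in individual BK KO libraries. In cortex it measured 5.18, 4.71 and 4.07 FPKM in individual WT and 3.26, 2.04 and 1.94 in individual BK KO libraries. Every BK KO value lay below every WT value in both tissues (two-sided exact permutation test, p = 0.1 in each, the smallest that 3 against 3 allow). Its log2 fold change was -0.94 (standard error 0.16, adjusted p = 0.0142 by limma) in hippocampus and -0.74 (standard error 0.17, adjusted p = 0.0237) in cortex. Echdc2 passed the threshold in all 6 fits that each left out 1 library, in either tissue. The BK KO effect in hippocampus minus that in cortex was -0.20 (standard error 0.24), with a limma adjusted p of 0.998 over the 196 genes listed in both tables and an unadjusted p of 0.421. Since both tissues came from the same mice, they are not independent groups. Over the genes listed in both tables, the deviations from the group means of same-numbered hippocampus and cortex libraries correlated with an r of 0.51, 0.66 and 0.55 for BK KO libraries 1, 2 and 3, and of -0.000417, 0.49 and 0.02 for WT libraries, a description across genes. For no gene was the adjusted or the unadjusted interaction p-value under 0.05, a share of 0% of the 196, and both tables had selected genes that differed.

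**Figure D2:**
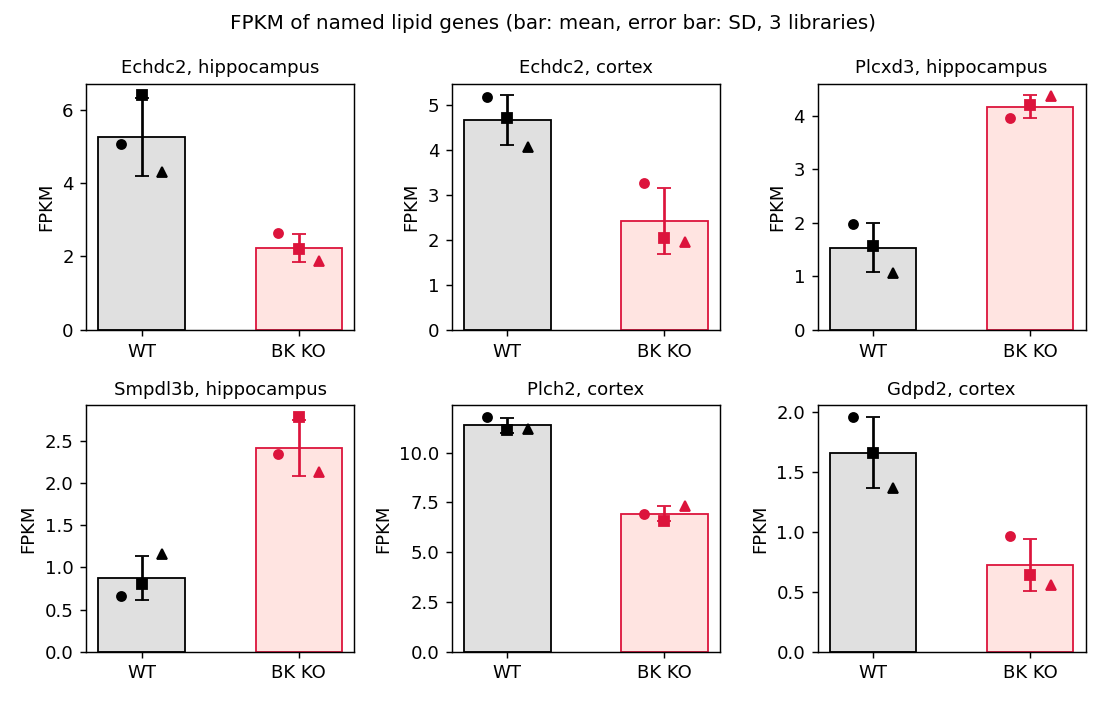
FPKM of Echdc2 in both tissues, Plcxd3 and Smpdl3b in hippocampus, and Plch2 and Gdpd2 in cortex. Bars are means and error bars SDs of 3 libraries, and circles, squares and triangles are libraries 1, 2 and 3. In each panel the 3 BK KO values lie on one side of the 3 WT values.

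Aasdh, a relative of the enzymes that activate fatty acids, was listed in cortex and averaged 1.30 ± 0.321 FPKM (SD, n = 3) in WT and 0.762 ± 0.226 (SD, n = 3) in BK KO mice, with overlapping groups and no call.

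The genes of triglyceride storage and lipolysis held the most abundant member. Dgat2, which joins diacylglycerol and an acyl-CoA to form triglyceride, measured 20.7, 35.6 and 31.7 FPKM in individual WT hippocampus libraries and 44.3, 51.6 and 43.0 in individual BK KO hippocampus libraries. All 3 BK KO values were above the WT values, and WT library 1 was the lowest of the 6. The log2 fold change was 0.67 (standard error 0.21, adjusted p = 0.0292 by limma). It was 0.44 without WT library 1 and 0.59 without BK KO library 2, and in these fits Dgat2 did not pass. Pnpla3, a lipid droplet protein that acts on triglyceride and retinyl esters, measured 3.11, 2.92 and 2.33 FPKM in individual WT and 1.49, 1.42 and 1.18 in individual BK KO hippocampus libraries. The highest BK KO value was below the lowest WT value, with a log2 fold change of -0.68 (standard error 0.12, adjusted p = 0.0150 by limma), and Pnpla3 passed in all 6 leave-out fits. With median centring, which raised every hippocampus log2 fold change by 0.13, that of Pnpla3 was -0.55 and it did not pass.

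In cortex the members of this group were Lpl, Cidea and Apobr. Lpl, lipoprotein lipase, which releases fatty acids from the triglyceride of lipoproteins, measured 4.84, 3.94 and 3.15 FPKM in individual WT and 1.59, 1.71 and 2.91 in individual BK KO libraries. The groups did not overlap, though BK KO library 3 came close to WT library 3. Limma gave a log2 fold change of -0.71 (standard error 0.20, adjusted p = 0.0330), and Lpl passed in all 6 leave-out fits. Cidea, a lipid droplet protein best known from brown fat, measured 1.98, 2.83 and 1.91 FPKM in individual WT and 3.08, 6.37 and 4.54 in individual BK KO libraries. Its BK KO values were all above the WT values but spread widely, and the log2 fold change was 0.78 (standard error 0.23, adjusted p = 0.0370 by limma). Cidea did not pass without WT library 1 (0.72), without WT library 3 (0.70) or without BK KO library 2 (0.56). Apobr, a receptor that takes up lipoproteins bearing apolipoprotein B, averaged 0.532 ± 0.216 FPKM (SD, n = 3) in WT and 0.225 ± 0.0840 (SD, n = 3) in BK KO cortex. Its groups did not overlap, and it was not past the threshold.

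**Figure D3:**
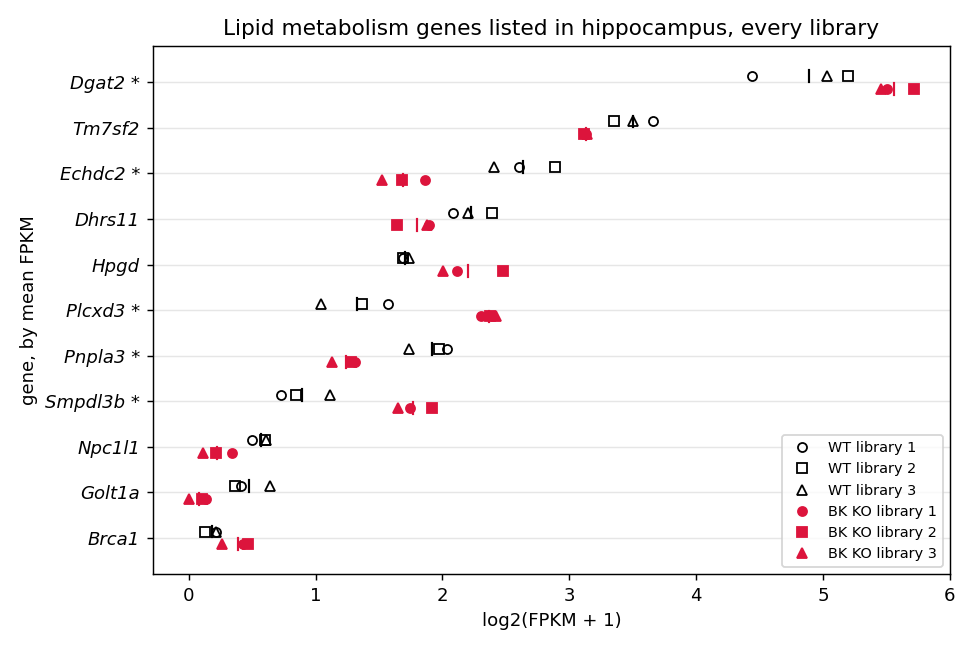
Log2(FPKM + 1) of 11 of the 12 members listed in hippocampus, in every library, ordered by mean FPKM. Open black symbols are WT and filled red symbols BK KO libraries, short lines are group means, and an asterisk marks a gene past the threshold. The groups of the genes shown do not overlap.

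The phospholipid genes held the largest rise of hippocampus on the log2 scale, Plcxd3, and 3 of the 6 cortex members past the threshold. Plcxd3, a protein with the X domain of phosphatidylinositol-specific phospholipase C, measured 1.98, 1.57 and 1.06 FPKM in individual WT and 3.95, 4.20 and 4.36 in individual BK KO hippocampus libraries. The BK KO mean was 2.71 times the WT mean, and the BK KO values were close together while the WT values spread. Its log2 fold change was 1.04 (standard error 0.15, adjusted p = 0.0142 by limma), with 0.90 to 1.17 over the leave-out fits. On log2(FPKM + 1), Plcxd3 was the only member with a log2 fold change beyond 1. That holds for this scale, which shrinks the fold changes of genes with low FPKM. The WT mean was 6.77 times the BK KO mean for Golt1a and 2.85 times for Npc1l1. For Smpdl3b the BK KO mean was 2.78 times the WT mean. With a pseudocount of 0.1 more members were beyond 1, among them Golt1a at -1.66 and Smpdl3b at 1.40.

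Plch2, a calcium-sensitive phospholipase C of neurons that cuts phosphatidylinositol bisphosphate into diacylglycerol and inositol trisphosphate, measured 11.8, 11.1 and 11.2 FPKM in individual WT and 6.93, 6.59 and 7.31 in individual BK KO cortex libraries. The spread in each group was small, with a coefficient of variation of 3.18% in WT and 5.24% in BK KO libraries, and no BK KO value came near a WT value. The log2 fold change was -0.64 (standard error 0.08, adjusted p = 0.0205 by limma), with a range of -0.67 to -0.61 over the leave-out fits, all of which called it.

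A pair of glycerophosphodiester phosphodiesterases moved in opposite directions in cortex. Gdpd5, which cleaves glycerophosphocholine and the anchors of glycosylphosphatidylinositol-linked proteins, measured 6.47, 7.77 and 8.14 FPKM in individual WT and 14.2, 14.7 and 9.31 in individual BK KO libraries. BK KO library 3 lay nearer to the WT values than to the other BK KO libraries, without overlap. Limma gave a log2 fold change of 0.68 (standard error 0.19, adjusted p = 0.0320), and without BK KO library 2 it was 0.57 and Gdpd5 did not pass. Gdpd2, a relative with activity on glycerophosphoinositol, measured 1.96, 1.66 and 1.36 FPKM in individual WT and 0.967, 0.636 and 0.560 in individual BK KO libraries. All BK KO values were below the WT values, with a log2 fold change of -0.63 (standard error 0.13, adjusted p = 0.0217 by limma). It was -0.55 without WT library 1 and -0.56 without BK KO library 3, and in these fits Gdpd2 did not pass. Gdpd5 was the more abundant of the pair in each WT and each BK KO library.

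The other phospholipid genes of cortex did not pass the threshold. Pnpla7, a lysophospholipase of the endoplasmic reticulum, averaged 1.90 ± 0.127 FPKM (SD, n = 3) in WT and 3.15 ± 0.966 (SD, n = 3) in BK KO mice, without overlap. Serac1, which takes part in remodelling phosphatidylglycerol where mitochondria meet the endoplasmic reticulum, averaged 4.25 ± 0.813 FPKM (SD, n = 3) and 2.61 ± 0.320 (SD, n = 3), also without overlap. Mboat1, an acyltransferase for lysophospholipids, averaged 0.771 ± 0.348 FPKM (SD, n = 3) and 0.358 ± 0.134 (SD, n = 3), and its groups overlapped. Of these 3 genes, Pnpla7 was the one with the higher BK KO mean.

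**Figure D4:**
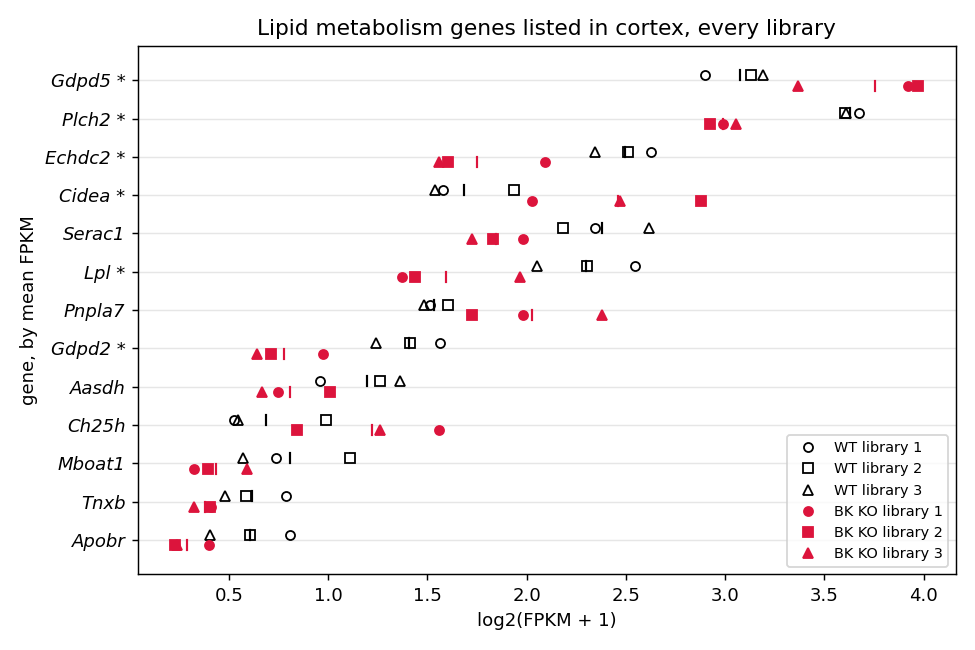
Log2(FPKM + 1) of 13 of the 14 members listed in cortex, in every library, ordered by mean FPKM, with symbols as for hippocampus. The WT and BK KO values of Plch2 stand far apart, while those of Aasdh, Ch25h and Mboat1 overlap.

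None of Tm7sf2, Npc1l1, Dhrs11 and Ch25h, the genes of sterols and steroids, passed the threshold. Tm7sf2, a sterol reductase of cholesterol synthesis, measured 11.7, 9.20 and 10.3 FPKM in individual WT and 7.78, 7.68 and 7.82 in individual BK KO hippocampus libraries. All BK KO values were below the WT values, and their coefficient of variation was 0.895%, against 11.9% in WT libraries. Its log2 fold change was -0.37 (standard error 0.11, adjusted p = 0.0283 by limma), short of 0.58 on this scale. The authors' base means of Tm7sf2 were 420 in WT and 276 in BK KO hippocampus. In proportion this gap is wider than that of the FPKM means, 10.4 and 7.76. Tm7sf2 was the only one of 29 genes of cholesterol synthesis and uptake listed in hippocampus, and 0 of them were listed in cortex.

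Npc1l1, a transporter known for sterol uptake in the intestine, averaged 0.485 ± 0.0633 FPKM (SD, n = 3) in WT and 0.170 ± 0.0943 (SD, n = 3) in BK KO hippocampus. Dhrs11, a dehydrogenase that acts on steroids, averaged 3.70 ± 0.516 FPKM (SD, n = 3) and 2.50 ± 0.334 (SD, n = 3). The groups of both genes did not overlap. Ch25h, which hydroxylates cholesterol to an oxysterol made by activated macrophages, measured 0.439, 0.983 and 0.460 FPKM in individual WT and 1.94, 0.792 and 1.40 in individual BK KO cortex libraries. BK KO library 2 was below WT library 2, and the log2 fold change was 0.53 (standard error 0.22, adjusted p = 0.0667 by limma). Ch25h passed the threshold without BK KO library 2 (0.72) or without WT library 2 (0.68).

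Smpdl3b and Hpgd were the members of sphingolipid and eicosanoid metabolism, both from hippocampus. Smpdl3b, a membrane-anchored relative of acid sphingomyelinase, measured 0.657, 0.798 and 1.16 FPKM in individual WT and 2.34, 2.79 and 2.13 in individual BK KO libraries. The lowest BK KO value was above the highest WT value and the BK KO mean was 2.78 times the WT mean. The log2 fold change was 0.87 (standard error 0.14, adjusted p = 0.0142 by limma), and Smpdl3b passed in all 6 leave-out fits. Hpgd, the dehydrogenase that inactivates prostaglandins, measured 2.22, 2.22 and 2.32 FPKM in individual WT and 3.33, 4.58 and 3.01 in individual BK KO libraries. The WT values were nearly equal, with a coefficient of variation of 2.74%, and all BK KO values were above them. Its log2 fold change of 0.50 (standard error 0.14, adjusted p = 0.0248 by limma) did not reach 0.58.

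Another 3 members carry the GO term but are best known for other work. Brca1, of DNA repair, and Golt1a, of Golgi vesicle transport, were listed in hippocampus. Tnxb, an extracellular matrix tenascin, was listed in cortex. None passed the threshold. Golt1a measured 0.333, 0.284 and 0.555 FPKM in individual WT and 0.0969, 0.0761 and 0 in individual BK KO libraries, the last being listed at 0. Brca1 averaged 0.137 ± 0.0396 FPKM (SD, n = 3) in WT and 0.309 ± 0.0954 (SD, n = 3) in BK KO mice. Tnxb averaged 0.542 ± 0.170 FPKM (SD, n = 3) and 0.301 ± 0.0430 (SD, n = 3) in cortex.

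Several of the members that did not pass were low. The mean over 6 libraries was under 1 FPKM for 3 of the 12 hippocampus members and 3 of the 14 cortex members, against 32.1% and 38.5% of all listed genes. With a pseudocount of 0.1 in place of 1, 10 hippocampus members and 13 cortex members passed. Of all listed genes, 247 then passed upward and 301 downward in hippocampus, and 118 and 290 in cortex, so that most listed genes passed at this setting. Golt1a, Npc1l1, Brca1 and Hpgd were added in hippocampus, and Aasdh, Apobr, Ch25h, Mboat1, Pnpla7, Serac1 and Tnxb in cortex. The authors' base means, averages of counts after division by size factors, ran from 6.89 for Golt1a in BK KO hippocampus to 2006 for Dgat2 there. In cortex they ran from 16.4 for Apobr in BK KO to 2391 for Plch2 in WT mice.

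Some annotation was shared by members beyond the rule. Steroid metabolic process was carried by 4 of the 12 hippocampus members, among them Npc1l1, Dhrs11 and Tm7sf2, and by 2 of the 14 cortex members (Apobr and Ch25h), where 5 listed genes of each tissue carried it. Lipid catabolic process was carried by 3 members of hippocampus (Pnpla3, Smpdl3b and Plcxd3) of 4 listed genes, and by 3 members of cortex (Lpl, Plch2 and Pnpla7) of 5. Hydrolase activity was carried by 3 hippocampus members (Pnpla3, Smpdl3b and Plcxd3) and 5 cortex members (Gdpd2, Gdpd5, Lpl, Plch2 and Pnpla7), against 9.05% and 8.02% of the listed genes. Phosphoric diester hydrolase activity was carried by Smpdl3b and Plcxd3 in hippocampus, of 6 listed genes, and by Gdpd2, Gdpd5 and Plch2 in cortex, of 5. The term membrane was carried by 6 hippocampus members and 9 cortex members, and by 38.5% and 34.9% of the listed genes. These counts are no test, since related GO terms go together. By KEGG annotation, glycerolipid metabolism held Pnpla3 and Dgat2 in hippocampus and Lpl and Mboat1 in cortex.

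Other genes of these pathways were counted from 10 lists of lipid genes, 633 in all. In hippocampus 15 of them were listed that are no member, of which 7 had a higher and 8 a lower BK KO mean. Of these, 5 passed upward and 1 downward, where 20.7% of all listed hippocampus genes passed upward and 21.9% downward. Abca1, which exports cholesterol to apolipoproteins, rose from a mean FPKM of 3.41 ± 0.475 (SD, n = 3) to 5.98 ± 0.752 (SD, n = 3). Angptl4, a secreted inhibitor of lipoprotein lipase, rose from a mean FPKM of 1.08 ± 0.449 (SD, n = 3) to 2.31 ± 0.478 (SD, n = 3). The other rises were Dgkb, Cyp1b1 and Aldh1a2, the last with overlapping groups, and the fall was Acot5, an acyl-CoA thioesterase. In cortex 14 such genes were listed, 5 higher and 9 lower, of which 1 passed upward (Akr1c18) and 2 downward (Fabp7 and Rpe65). All listed cortex genes passed upward in 10.9% and downward in 20%. Fabp7, a fatty acid binding protein of astrocytes and radial glia, averaged 38.9 ± 12.9 FPKM (SD, n = 3) in WT and 22.3 ± 4.12 (SD, n = 3) in BK KO mice, with overlapping groups. Angptl4 in cortex averaged 1.62 ± 0.922 FPKM (SD, n = 3) and 2.91 ± 0.196 (SD, n = 3), without overlap and without passing.

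Marker genes of other cell types also stood at other levels in BK KO than in WT libraries. In hippocampus, 2 of 14 oligodendrocyte markers were listed, with a summed level of 15.6 to 30.6 FPKM in WT and 10.1 to 16.1 FPKM in BK KO libraries. For 3 of 11 endothelial markers the sums were 7.67 to 10.6 and 4.73 to 5.83 FPKM, and for 4 of 9 markers of pericytes and smooth muscle 59.4 to 63.2 and 35.9 to 45.0 FPKM. For 2 of 8 markers of inhibitory neurons (Gad2 and Reln) they were 18.7 to 21.4 and 39.0 to 51.1 FPKM. Of 9 pituitary markers only Gh was listed, with all WT libraries at 0 and the BK KO libraries at 0.120 to 57.5 FPKM.

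In cortex, 14 of 15 skeletal muscle markers were listed, all lower in BK KO mice, with sums of 28.8 to 92.6 FPKM in WT and 7.87 to 10.2 FPKM in BK KO libraries. WT library 1 had the highest sum. Ckm and Myl1 were each listed at 0 in 1 BK KO library. Lpl is a gene that muscle also expresses. Its log2 fold change was -0.71 with all libraries, -0.59 without WT library 1 and -0.60 without BK KO library 1. Over all fits that each left out 1 library it ran from -0.90 to -0.59. The muscle sums of the other WT libraries were also above those of the BK KO libraries. A part of muscle in the level of Lpl was not tested. For 4 of 14 oligodendrocyte markers the sums were 29.2 to 39.8 and 15.8 to 22.0 FPKM, and for 3 of 11 endothelial markers 7.41 to 10.3 and 4.89 to 5.85 FPKM. Gfap, the 1 listed of 12 astrocyte markers, was at 23.1 to 50.4 and 50.9 to 92.2 FPKM. Gad2, the 1 listed of 8 inhibitory markers, was at 12.9 to 15.6 and 19.1 to 33.1 FPKM, and Hba-a2, the 1 listed of 6 blood markers, at 17.6 to 32.8 and 5.19 to 16.3 FPKM. Markers of microglia, choroid plexus, meninges and adipocytes were listed in neither table. The part of these cell types in the lipid genes was not tested. The identity of the tissues could not be checked, because most defining markers are not among the listed genes.

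In hippocampus the library of its group nearest to the other genotype was WT library 1, 2 or 3 for 4 members each, and BK KO library 1 for 6, library 2 for 1 and library 3 for 5. In cortex these counts were 2, 5 and 7 for WT and 7, 3 and 4 for BK KO libraries. Libraries of one group correlated with an r of 0.968 to 0.979 on the log2 scale over the genes of the table, a description across genes, and 0 of the values above 0 were the same in 2 libraries of a group.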

How the data were processed

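RNA-seq libraries of hippocampus and cortex from 3 WT and 3 BK KO mice were analysed, grouped by the sample labels. The authors made poly-A libraries and compared genotypes with DESeq (1.10.1 by the submitters' processing notes, which also name DESeq2 and build mm9). The aligner and counter are not given in the sources used here. Each deposited table was cut by the authors at a fold change and an unadjusted p-value, so genes that did not differ are not listed.

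The deposited per-library values are taken as FPKM, a unit the sources do not name. Their ratio to the base mean fell with transcript length (GENCODE M21), with a log2 slope of -0.75 in hippocampus and -1.03 in cortex. Such a fall shows scaling by length and cannot tell FPKM from another length-scaled unit. The deposited base means (signal: counts over size factors, averaged by the authors) are quoted as depth and beside some log2 fold changes, and were not tested. The authors' own fold (ratio), log2 fold change, p-value and adjusted p-value columns were deposited too and were not used. Depth per library is unknown, so no interval that needs it is given. Every column of library values has its sample, with 0 left over.

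Each tissue was fitted over its whole table with limma 3.58.1 in R 4.3.3 (lmFit, eBayes, no trend) on log2(FPKM + 1), and the interaction over all genes listed in both tables. The scripts were tested on simulated data. Levels were not tested across tissues. Other steps used Python 3.11.15, pandas 2.3.3 and scipy 1.17.1. Promoters were matched by RefSeq gene ID. The alternatives were pseudocounts of 0.1 and 0.5, the replicate number as a block, a mean of at least 1 FPKM, median centring, limma's trend, stricter thresholds and leaving out each library.

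Members, lists of 10 lipid roles and 13 cell types, and tests were chosen with earlier results of these data known. Values of every library are given for members listed in both tissues, for members past the threshold without overlap and at a mean of at least 1 FPKM (up to 15 per tissue), and for the most abundant member of each role list. Golt1a, the group means of the other members, and the promoters shown were added after their values were seen. Counts cover all members, but the values of 2 of them (1 in each tissue) are not reported here. The labels do not tie mice to litters or days, so p-values measure the spread between these samples.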

Additional observations from a re-analysis of the deposited data

How the results depend on the processing

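All log2 fold changes of the members kept their direction under every alternative run (141 in hippocampus, 165 in cortex). The count of members past the threshold moved from 6 to 10 in hippocampus and from 6 to 13 in cortex with a pseudocount of 0.1, at which 247 listed genes passed upward and 301 downward in hippocampus, and 118 and 290 in cortex. It was 1 in hippocampus and 0 in cortex with a log2 fold change beyond 1 on log2(FPKM + 1), where the share of all listed genes was not counted. It ran from 4 to 6 and from 4 to 8 with each library left out. With each library left out the groups did not overlap in 11 to 12 members of either tissue, an alternative chosen after seeing the data. Leaving out a library can only keep or add members without overlap, so this count could not fall and tests nothing. Median centring raised all log2 fold changes by 0.13 in hippocampus and 0.21 in cortex, because the listed genes it centres on are mostly lower in BK KO mice. The members' calls were then 5 higher and 1 lower in hippocampus (4 and 2 without it) and 4 higher and 0 lower in cortex (2 and 4). The shift follows from the choice of listed genes, so these calls cannot decide whether libraries differ in scale. The labels do not say whether the numbers of the libraries pair WT with BK KO mice. Deviations from the group means of same-numbered WT and BK KO libraries had correlations of -0.07 to 0.08 in hippocampus and -0.24 to 0.12 in cortex. Such correlations cannot decide whether the numbers pair mice. With the replicate block 5 members passed in hippocampus and 6 in cortex. The interaction of Echdc2 lay between -0.31 and -0.03 in the leave-out fits, and with same-numbered libraries of a genotype as a replicate block its adjusted p was 0.997. Unknown depth and 3 libraries a group limit what can be told for the members under 1 FPKM.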
